A study of Mus musculus with 4 samples.

Results

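The genes described here are the G1 cyclins and the kinases they activate, 8 genes chosen by symbol: Ccnd1, Ccnd2, Ccnd3, Ccne1, Ccne2, Cdk2, Cdk4 and Cdk6. They were looked up among the array's probe sets that carry a single gene symbol, and 7 of the 8 were found, each with 1 probe set, out of 22180 genes with such a probe set. The probe set that covers Ccne2 is annotated to Ints8 as well, so Ccne2 has no value of its own. Each of the 4 Affymetrix arrays carried total RNA of LSK cells, bone marrow cells that lack lineage markers, carry Sca1 and c-Kit, and include hematopoietic stem cells and multipotent progenitors. The comparison set 2 samples from SRC-3 knockout (KO) mice against 2 samples from wild-type (WT) mice, all male and 8 weeks old, with marrow flushed from femur and tibia, red cells lysed and LSK cells sorted by flow cytometry. SRC-3 is the protein of Ncoa3, which helps nuclear receptors and other factors to activate transcription. The labels describe neither the deleted allele nor the number of mice behind a sample, and do not say whether the loss was limited to blood cells. The replicates are called biological, but without word on separate mice the p-values may reflect a technical spread alone.

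D cyclins are made in response to growth signals and cytokines, bind CDK4 or CDK6 and start the phosphorylation of the retinoblastoma protein. This releases E2F transcription factors, which switch on cyclin E and the genes of DNA replication, and cyclin E with CDK2 then carries the cell into S phase. Most hematopoietic stem cells rest outside the cycle, and CDK6 is known to set how fast human stem cells leave that rest. Mice lacking all 3 D cyclins, or both Cdk4 and Cdk6, die before birth with failing blood formation.

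No G1 cyclin or kinase passed the test over all genes (limma, adjusted p under 0.05), where 0.509% of genes did. Of all genes, 0.397% (88) were higher and 0.113% (25) were lower in KO, so that 77.9% of the called genes were higher. With each array set to a common median that share was 88.4%, from 320 higher and 42 lower genes. That scaling raised the median KO minus WT difference of all genes to 0.13 on the log2 scale, against -0.0010 as deposited. At an unadjusted p under 0.05, 1 member was higher in KO (Ccne1), where 10.5% of all genes were, and 1 was lower (Cdk6), where 6.93% were. Both KO arrays lay above both WT arrays for Ccnd1, Ccnd2 and Ccne1, an arrangement that 25.1% of all genes had. Cdk6 alone among the 7 had both KO arrays below both WT arrays, as 22.9% of all genes did. All 7 lay at or above the median gene by mean level. Of the 11090 genes there, 1936 were higher and 1059 lower in KO at an unadjusted p under 0.05. Both KO arrays lay above both WT arrays for 3819 of these genes and below them for 2739. The median KO minus WT difference over the 7 genes was 0.10 on the log2 scale, and it was -0.042 without WT replicate 2, 0.27 without WT replicate 1 and 0.23 with arrays set to a common median. All values below are log2 levels as deposited, and differences are KO minus WT with the moderated standard error (SE).

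**Figure D1:**
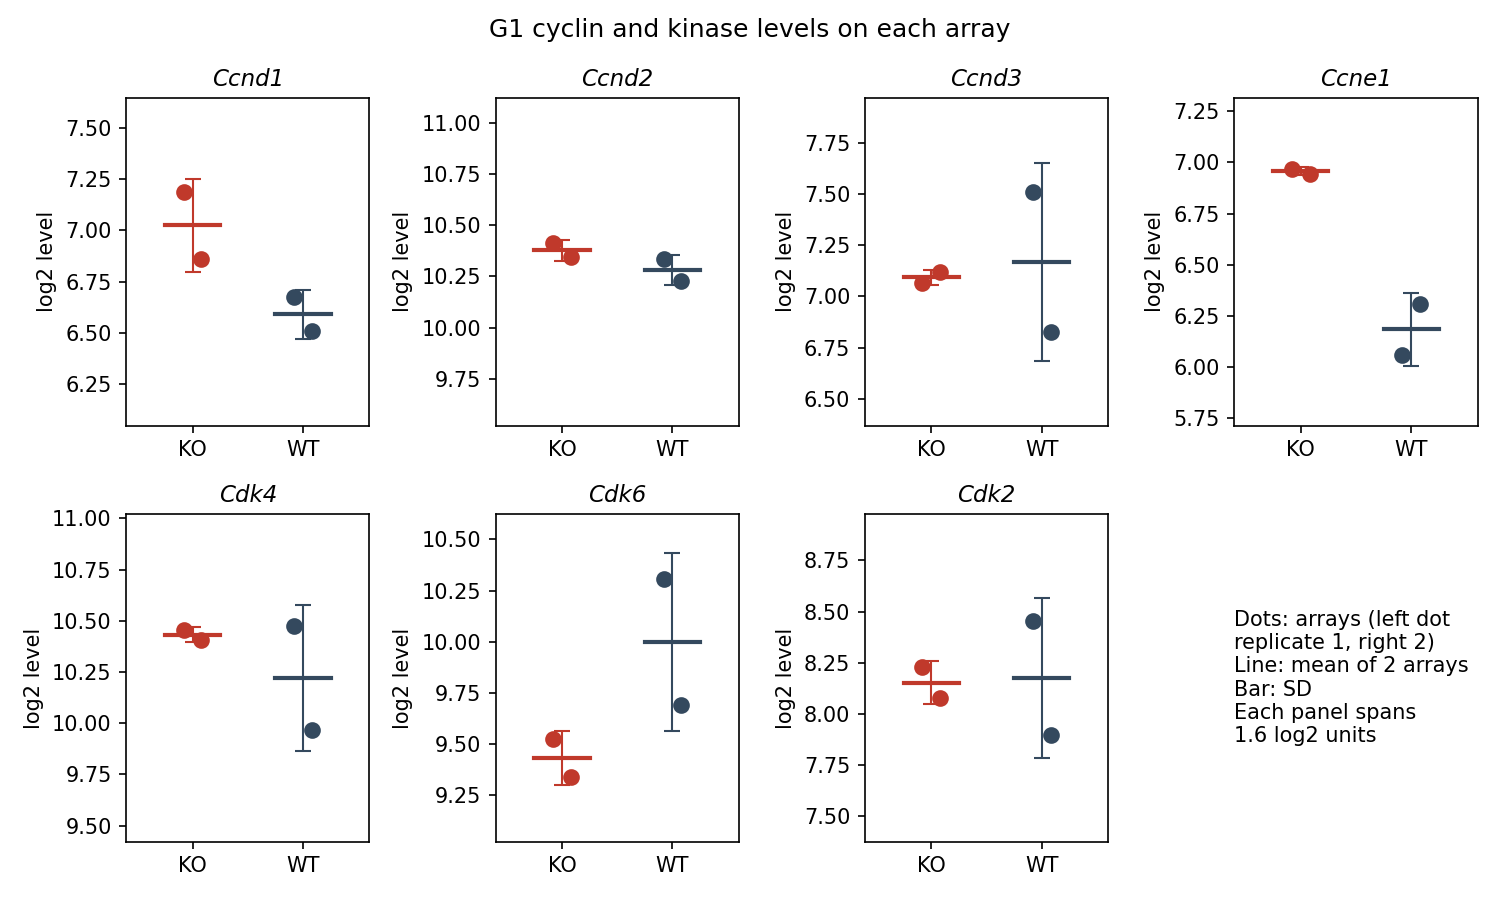
Log2 level of each measured G1 gene on the 2 KO and 2 WT arrays, with dots for arrays, lines for group means and bars for the SD. Ccne1 and Ccnd1 sit higher on both KO arrays, Cdk6 sits lower on both, and the WT arrays lie far apart for Ccnd3, Cdk2, Cdk4 and Cdk6.

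The state of the arrays bears on how these genes are read. Ncoa3, the knocked-out gene (17979, chr2:165992637-166073242, GRCm38.p6), was at 5.35 and 5.09 on the KO arrays and at 7.76 and 7.05 on the WT arrays, and fell 4.55-fold in KO (limma adjusted p = 0.038). Without KO replicate 1 its adjusted p was 0.716 and without KO replicate 2 it was 0.551. In every fit that leaves out an array, 1 group has a single array and is assumed to vary like the other, so that the spread comes from the pair that remains. Fits without a WT array thus rest on the tighter KO pair and called 1754 (without WT replicate 1) and 3002 genes (without WT replicate 2), and those without a KO array called none in limma, where 1471 (without KO replicate 1) and 1910 genes (without KO replicate 2) had a p below 0.05 before adjustment. Their adjusted p-values describe the dependence on single arrays and are not calls. Across genes the array-to-array difference had an SD of 0.279 within KO and 0.382 within WT. Kit was at 9.43 and 9.34 in KO and at 10.3 and 9.65 in WT, and no single-gene probe set measured Ly6a, the Sca1 gene. Of 8 measured lineage markers of the sort, the 4 genes Cd3e, Cd8a, Klrb1c and Ly6g were below the median gene (4.32) on every array, and the other 4 were above it. Among these, the myeloid gene Ly6c2 was at 12.1 and 12.3 in KO and at 11.4 and 11.6 in WT, and Itgam, which encodes Mac-1, at 4.80 and 5.06 in KO and at 6.50 and 5.78 in WT. In bulk RNA, fewer cells of a type and less RNA per cell cannot be told apart, and this holds for every difference given here.

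Among the D cyclins, Ccnd1 (cyclin D1, gene 12443, chr7:144929931-144939831) was at 7.19 and 6.86 on the KO arrays and at 6.67 and 6.51 on the WT arrays. The KO arrays were both higher, by 0.19 at the closest. The means were 7.02 ± 0.23 in KO and 6.59 ± 0.12 in WT (SD, n = 2 each), a difference of 0.43 ± 0.19 (SE), or 1.35-fold, which did not pass (limma adjusted p = 0.318). The 95% interval ran from 0.977-fold to 1.87-fold. Ccnd2 (cyclin D2, gene 12444, chr6:127125162-127152188), a cyclin that cytokine receptors act on through STAT5, had the steadiest levels of the 7 genes. It was at 10.4 and 10.3 in KO and at 10.3 and 10.2 in WT, with group means of 10.38 ± 0.05 and 10.28 ± 0.07 (SD, n = 2 each). The groups were kept apart by only 0.0091, and the difference was 0.10 ± 0.13 (SE, limma adjusted p = 0.765). Its interval, from 0.865-fold to 1.32-fold, was the narrowest of the 7.

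Ccnd3 (cyclin D3, gene 12445, chr17:47505051-47599689), known for its roles in erythroid and lymphoid precursors, was at 7.07 and 7.12 in KO and at 7.51 and 6.83 in WT. Both KO arrays lay between the WT arrays. Its difference of -0.08 ± 0.25 (SE, limma adjusted p = 0.917) changed sign, to 0.06, when arrays were set to a common median. It was 0.27 without WT replicate 1 and -0.42 without WT replicate 2. The interval, from 0.624-fold to 1.44-fold, leaves room for a change in either direction at this number of arrays.

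The kinases of the D cyclins, CDK4 and CDK6, bind the same cyclins and the same INK4 inhibitors, and the values of their genes differed in direction. Cdk6 (gene 12571, chr5:3341004-3531008) was at 9.53 and 9.34 on the KO arrays and at 10.3 and 9.69 on the WT arrays. Both KO arrays were lower, by 0.17 at the closest, while the WT arrays stood 0.62 apart. The means were 9.43 ± 0.13 in KO and 9.999 ± 0.44 in WT (SD, n = 2 each). The difference of -0.57 ± 0.22 (SE) corresponds to a level 1.48-fold lower in KO (limma adjusted p = 0.26), and the 95% interval of KO over WT ran from 0.466-fold to 0.977-fold. Leaving out WT replicate 2 gave -0.88 (limma adjusted p = 0.0141, with the spread of the KO pair alone), and leaving out WT replicate 1 gave -0.26 (adjusted p = 0.215).

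Cdk4 (gene 12567, chr10:127063535-127067288) was at 10.5 and 10.4 in KO and at 10.5 and 9.97 in WT. The KO arrays lay close together, both just below WT replicate 1 and well above WT replicate 2. Its difference was 0.21 ± 0.19 (SE, limma adjusted p = 0.629), with an interval from 0.847-fold to 1.58-fold. It was 0.46 without WT replicate 1 (adjusted p = 0.0227) and -0.04 without WT replicate 2 (adjusted p = 0.666), in fits that drop the gap of 0.51 between the WT arrays and keep that of 0.051 between the KO arrays.

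Much of the spread of Cdk4 and Cdk6 was shared by the WT arrays, and it cancels when the genes are set against each other on the same array. The log2 ratio of Cdk4 to Cdk6 was 0.93 and 1.07 on the KO arrays and 0.17 and 0.28 on the WT arrays. The ratio was thus higher on both KO arrays, and arrays of a group differed by no more than 0.14. Its SD was 0.10 in KO and 0.08 in WT (n = 2 each), and the means differed by 0.78, or a 1.72-fold shift of Cdk4 relative to Cdk6. An exact two-sided permutation test over 4 arrays gives p = 0.333, which is the smallest this design allows. The shift ran from 0.71 to 0.85 with each array left out in turn. Within-array ratios were taken for all 21 pairs of the 7 genes after the levels had been seen, and the groups did not overlap for 15 of them, pairs that reuse the same genes. The shift against Cdk6 was not particular to Cdk4. Every other measured member also had a higher ratio to Cdk6 on both KO arrays. Those shifts ran from 0.49 for Ccnd3 to 1.34 for Ccne1, with 0.55 for Cdk2. Over all pairs of the 22180 genes the groups did not overlap for 50.1%. Such a ratio shows unequal change of the pair, not which of them changed, and its absolute size depends on the probes.

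**Figure D2:**
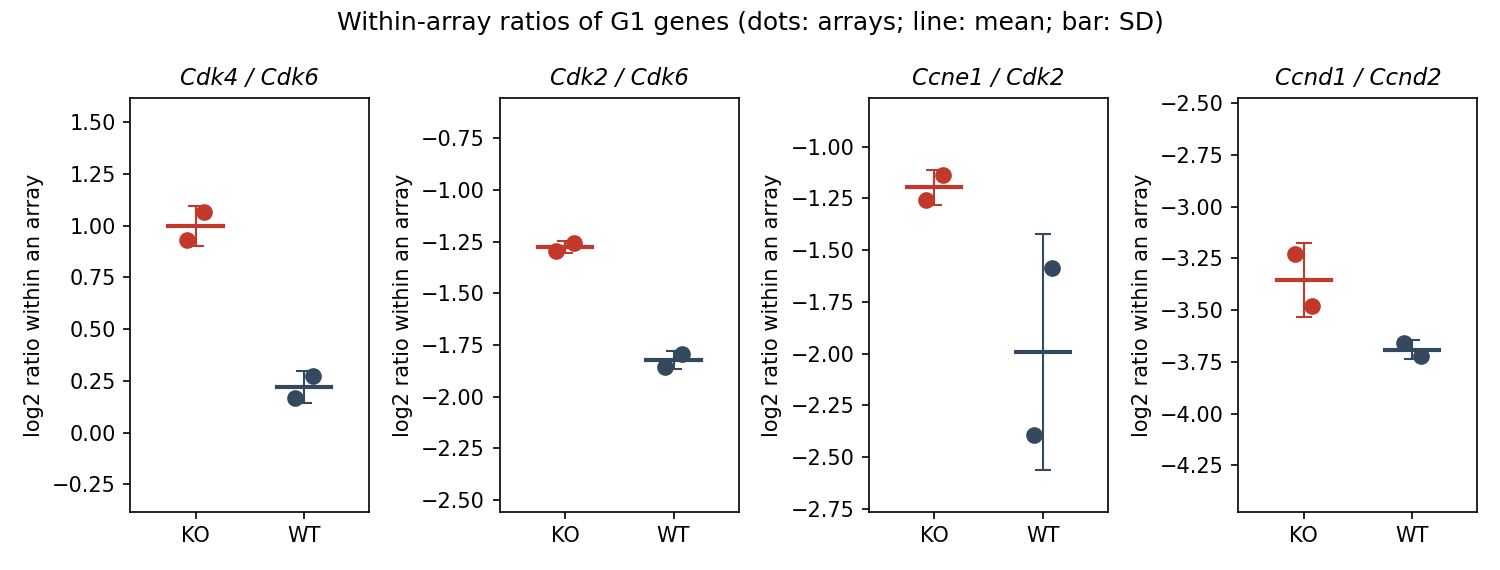
Log2 ratio of pairs of G1 genes within each array, with KO left of WT, dots for arrays, lines for means and bars for the SD. The ratio of Cdk4 to Cdk6 is 0.93 and 1.07 in KO and 0.17 and 0.28 in WT, while the ratio of Ccne1 to Cdk2 varies widely between the WT arrays.

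The promoters of Cdk4 and Cdk6 are shown because the ratio of this pair differed between the groups, as did the ratio of every other measured member to Cdk6. The windows hold the 250 bases before the gene start (RefSeq, GRCm38.p6, plus strand for both), at chr10:127063285-127063534 for Cdk4 and chr5:3343643-3343892 for Cdk6, where the start used lies inside the span of the annotated gene. Capitals mark the E-box CACGTG, a palindrome that MYC and related factors bind, and the TATA box letters TATAAA on either strand.
Cdk4: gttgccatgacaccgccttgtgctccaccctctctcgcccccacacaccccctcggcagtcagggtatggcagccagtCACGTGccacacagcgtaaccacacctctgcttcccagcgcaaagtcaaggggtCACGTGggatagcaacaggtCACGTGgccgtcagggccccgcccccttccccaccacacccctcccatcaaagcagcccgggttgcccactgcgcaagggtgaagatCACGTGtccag
Cdk6: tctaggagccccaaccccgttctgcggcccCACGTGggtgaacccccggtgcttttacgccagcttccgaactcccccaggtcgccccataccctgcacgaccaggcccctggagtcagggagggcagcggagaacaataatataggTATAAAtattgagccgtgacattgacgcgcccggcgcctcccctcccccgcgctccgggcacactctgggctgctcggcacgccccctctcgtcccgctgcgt
Cdk4 held 4 E-boxes and no TATA box letters, and Cdk6 held 1 of each. Of 32851 promoter windows of this length in the table, 6.02% had at least 1 such E-box, 0.0213% had 4 or more, and 12.4% had the TATA box letters. Myc, whose protein binds such E-boxes, was at 8.90 and 8.85 in KO and at 9.22 and 9.15 in WT, a difference of -0.31 ± 0.14 (SE, limma adjusted p = 0.33). A match in these windows is a description of letters and says nothing on binding.

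Ccne1 (cyclin E1, gene 12447, chr7:38097984-38107490), the cyclin that activates CDK2 at the end of G1, showed the largest difference of the 7 genes. It was at 6.97 and 6.94 on the KO arrays and at 6.06 and 6.31 on the WT arrays. The KO arrays agreed to within 0.027 and both exceeded the higher WT array by 0.63. The means were 6.96 ± 0.02 in KO and 6.18 ± 0.18 in WT (SD, n = 2 each). The difference of 0.77 ± 0.18 (SE), or 1.71-fold with a 95% interval from 1.26-fold to 2.31-fold, had an adjusted p of 0.116 in limma. By p-value it stood at position 857 among the 22180 genes. Leaving out KO replicate 1 gave an adjusted p of 0.74 and leaving out KO replicate 2 gave 0.581, whereas it was 0.0423 when WT replicate 1 was dropped and 0.0163 when WT replicate 2 was, both with the spread of the KO pair alone.

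The promoter of Ccne1 is shown as that of the member with the largest difference. The window is the 250 bases before its start (RefSeq, GRCm38.p6, chr7:38107491-38107740, minus strand), with the GC box GGGCGG, to which SP1 binds, in capitals on either strand.
Ccne1: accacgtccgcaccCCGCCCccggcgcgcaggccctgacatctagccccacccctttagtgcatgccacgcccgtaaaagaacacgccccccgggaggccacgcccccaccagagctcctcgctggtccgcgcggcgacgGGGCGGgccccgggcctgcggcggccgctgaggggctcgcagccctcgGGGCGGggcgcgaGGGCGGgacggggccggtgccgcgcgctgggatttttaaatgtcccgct
It held 4 GC boxes, where 4.09% of all windows held 4 or more, and 76% of its bases were G or C. The E2F site forms TTTCGCGC, TTTGGCGC, TTTCCCGC and TTTGCCGC, searched on both strands, were not in this window, and 1.86% of all windows held at least 1 of them. The window of Cdk2 held 1 and those of Ccnd3, Cdk4 and Cdk6 none. Ccnd1, Ccnd2 and Ccne2 had no entry in the table.

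Cdk2 (gene 12566, chr10:128697938-128705051), the kinase that cyclin E activates, was at 8.23 and 8.08 in KO and at 8.45 and 7.90 in WT. Both KO arrays lay between the WT arrays, and the difference was -0.02 ± 0.22 (SE, limma adjusted p = 0.978). It was 0.11 with arrays set to a common median, 0.25 without WT replicate 1, -0.30 without WT replicate 2 and 0.05 without KO replicate 2. The interval, from 0.682-fold to 1.42-fold, does not settle a direction. On the same arrays the log2 ratio of Ccne1 to Cdk2 was -1.26 and -1.14 in KO and -2.39 and -1.59 in WT. The ratio was higher on both KO arrays by a mean of 0.79, or 1.73-fold (exact permutation p = 0.333, the smallest possible), and by 0.39 without WT replicate 1 and 1.196 without WT replicate 2. The probe set shared by Ccne2 and Ints8 was at 7.39 and 7.17 in KO and at 6.63 and 7.23 in WT. Its groups overlapped, and its signal cannot be divided between the genes.

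**Figure D3:**
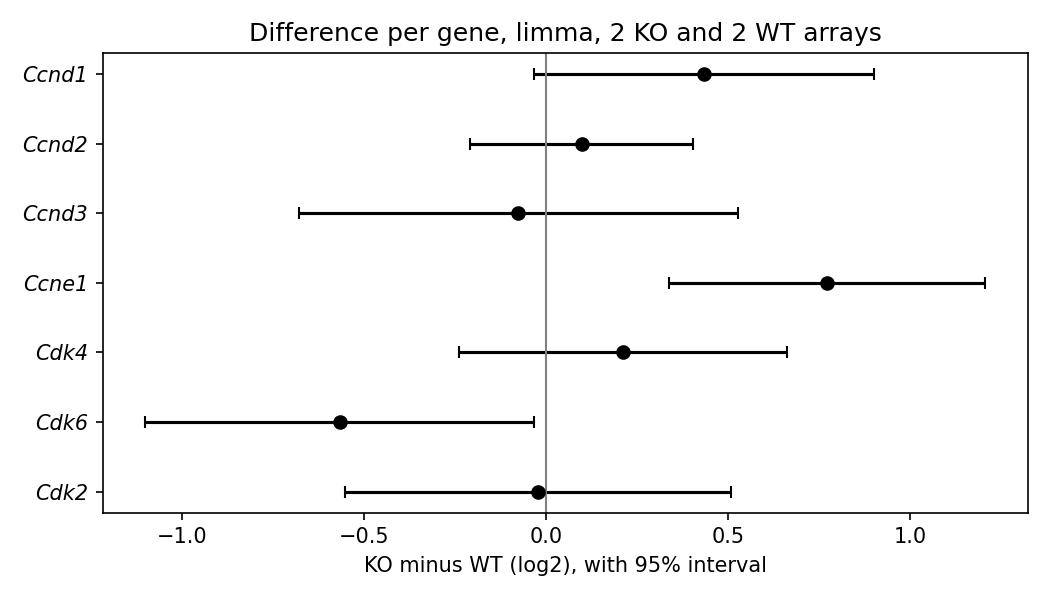
KO minus WT difference of each measured G1 gene on the log2 scale with its 95% interval from limma. The interval of Ccne1 lies above 0 and that of Cdk6 below 0, before any adjustment for the number of genes, and the other 5 intervals include 0.

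Replicates were also compared gene by gene. WT replicate 2 was below WT replicate 1 for 6 of the 7 genes, all but Ccne1, and KO replicate 2 was below KO replicate 1 for 6, all but Ccnd3, as for 58.3% of genes at or above the median gene. Over all genes WT replicate 2 was the lower array for 46.6%, and for 59.2% of those at or above the median gene, where all 7 members lay. The gap within a group was 0.11 to 0.68 between the WT arrays and 0.027 to 0.32 between the KO arrays, and the KO gap was the smaller for 6 of the 7, with Ccnd1 the exception. It was the smaller for 60.2% of all genes.

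Among 10290 other named genes at or above the median level, those whose centred profile over the 4 arrays was nearest to that of Cdk6 were Lilrb4a, Rbm4b and Azin1, at Euclidean distances of 0.031, 0.049 and 0.051. Nearest to Ccne1 were Nmi, Selenow and Pter, at 0.022, 0.030 and 0.032. These distances rest on 4 arrays and describe the profiles only.

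The brakes on G1 kinases were next compared. Of 10 CDK inhibitor and pocket protein genes none passed over all genes in limma. At an unadjusted p under 0.05, 1 of them was lower, where 6.93% of all genes were. That gene was Cdkn1a, which encodes the inhibitor p21, at 9.75 and 9.74 in KO and at 10.7 and 10.5 in WT (difference -0.86 ± 0.13, SE, limma adjusted p = 0.0612). Cdkn2c, for the CDK4 and CDK6 inhibitor p18, was at 4.99 and 5.06 in KO and at 4.44 and 4.79 in WT, a difference of 0.41 ± 0.19 (SE). Cdkn2b, which encodes another INK4 inhibitor, and Rbl2, the gene of the pocket protein p130, differed by -0.28 ± 0.17 and -0.23 ± 0.20 (SE). The list's median was -0.11, with 7 means lower, as 11145 of all 22180 genes were. That median was 0.027 with arrays set to a common median and 0.045 without WT replicate 1, with 4 means lower in either case.

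Genes downstream of G1 kinases mostly had higher means in KO, with none past the test over all genes in limma. Of 19 measured E2F target genes of S phase entry, 17 had a higher mean in KO, as did 54.5% of genes at or above the median gene. At an unadjusted p under 0.05, 5 were higher, where 10.5% of all genes were. Among the brighter 11090 genes, those at or above the median gene, 1936 were. The list's median was 0.30 against -0.0010 for all genes and 0.045 for the brighter 11090. The replication helicase genes Gins2 and Gins1 differed by 0.81 ± 0.16 and 0.87 ± 0.21, thymidine kinase gene Tk1 by 0.90 ± 0.23 and Cdc45, a further helicase component, by 0.57 ± 0.17 (SE). Without WT replicate 2 only 10 of the 19 means were higher and the median was 0.076, whereas without WT replicate 1 all 19 were higher and it was 0.54. With arrays set to a common median all 19 were higher too. The 10 E2F and DP genes were split, with 5 means higher, 5 lower and a median of 0.028. Among them an unadjusted p under 0.05 was reached by 1 with a higher and 1 with a lower mean (10.5% and 6.93% of all genes). E2f1, an activator, was at 6.12 and 6.15 in KO and at 5.63 and 5.61 in WT, and E2f7, a repressor, at 6.24 and 5.99 in KO and at 6.70 and 6.48 in WT. Tfdp1, a DP partner of E2F proteins, and E2f4 differed by 0.29 ± 0.14 and 0.32 ± 0.15 (SE).

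All 5 measured genes of the CDK activating kinase and CDK chaperones had higher means in KO, as did 54.5% of genes at or above the median gene. Their smallest difference was 0.025. Without WT replicate 2, 4 of the 5 means were higher. At an unadjusted p under 0.05, 3 were higher, where 10.5% of all genes were. The activating kinase phosphorylates the G1 kinases on the T-loop, and its genes Cdk7, Mnat1 and Ccnh differed by 0.75 ± 0.17, 0.63 ± 0.18 and 0.54 ± 0.17 (SE). Cdk7, the catalytic subunit, was at 7.62 and 7.81 in KO and at 6.93 and 6.995 in WT, with an adjusted p of 0.112 in limma. The chaperone gene Cdc37, whose protein folds CDK4 and CDK6, was at 9.01 and 8.94 in KO and at 9.05 and 7.64 in WT, so that its difference of 0.63 rests on WT replicate 2, the array below both KO arrays. Of 10 measured genes of the S, G2 and M phase list, 9 had higher means, as 11029 of all 22180 genes did. At an unadjusted p under 0.05, 3 were higher (10.5% of all genes). Cdk1 differed by 0.52 ± 0.16, Cks1b by 0.60 ± 0.24 and Cks2 by 0.41 ± 0.16, and the inhibitory kinase gene Wee1 by -0.53 ± 0.22 (SE).

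**Figure D4:**
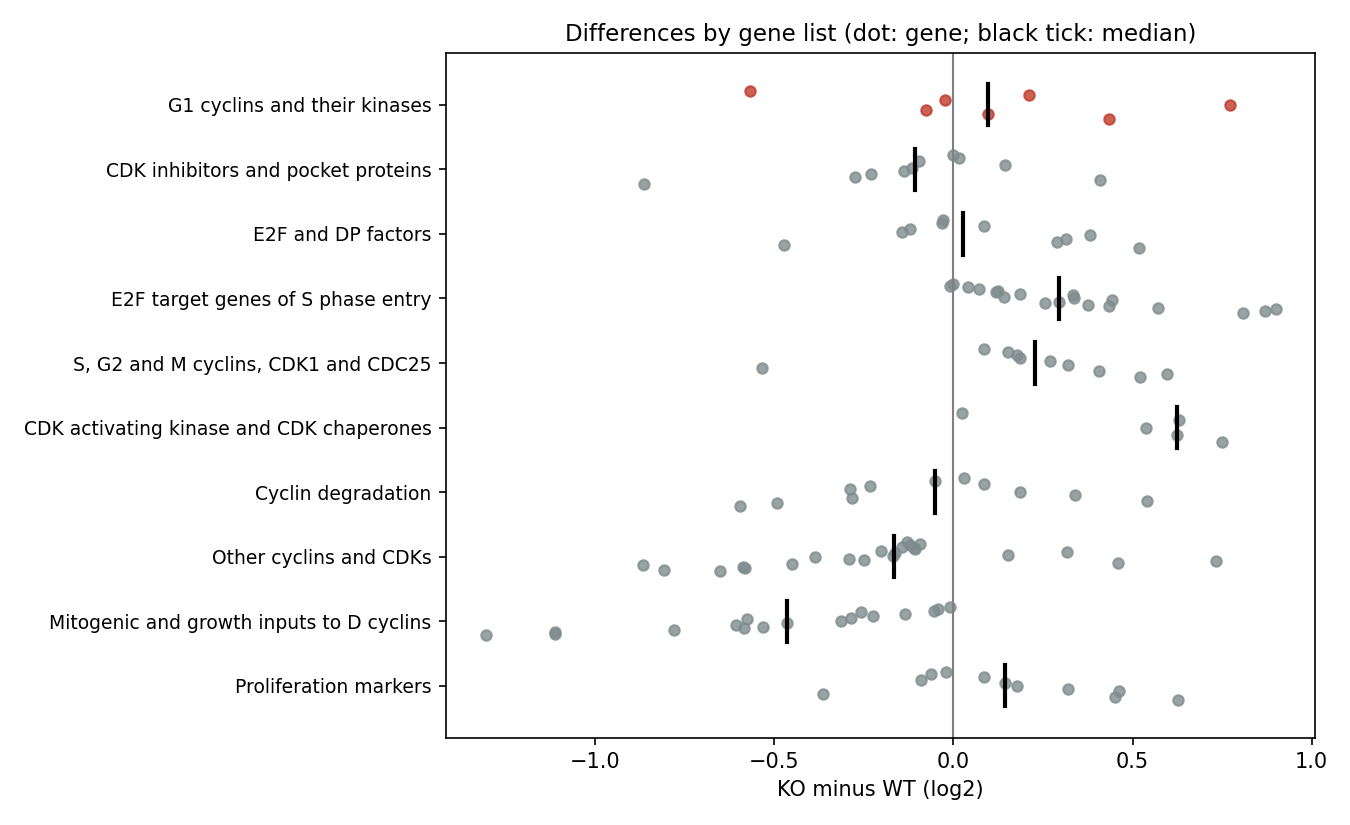
KO minus WT difference on the log2 scale for each measured gene (dots) of the G1 cyclins and kinases and of 9 related lists, with black ticks at the medians. The G1 genes spread from -0.57 to 0.77 around a median of 0.10, while the 17 measured growth inputs all lie below 0.

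Growth inputs to D cyclins were the only one of the 9 cell cycle lists with a member past the test over all genes. Rel, an NF-kB subunit, fell by 1.31 ± 0.14 (SE, limma adjusted p = 0.0267) and was at 8.69 and 8.64 in KO and at 10.01 and 9.93 in WT. Its difference was -1.33 without KO replicate 1 and -1.28 without KO replicate 2 (adjusted p = 0.732 and 0.552), and -1.27 without WT replicate 1 and -1.34 without WT replicate 2 (adjusted p = 0.0179 and 0.00793). All 17 measured members of the list had lower means in KO, as 11145 of all 22180 genes did. At an unadjusted p under 0.05, 8 were lower, where 6.93% of all genes were. The list's median was -0.46. The median was -0.25 without WT replicate 1, with 4 means higher, and -0.75 without WT replicate 2, and 3 means were higher with arrays set to a common median. The Wnt effector Tcf7l2 differed by -1.11 ± 0.17, the immediate early factor Egr1 by -1.11 ± 0.23 and Foxo1, a factor that restrains G1 entry, by -0.78 ± 0.18 (SE). Foxo3, a related factor, differed by -0.53 ± 0.21 (SE). The list thus mixes activators and restraints, and its counts give no net input.

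Genes of cyclin degradation were split, with 5 means higher and 6 lower among 11, none past the test over all genes. Gsk3b, whose kinase marks D cyclins for export and destruction, differed by -0.59 ± 0.19, the deubiquitinase gene Usp2 by -0.49 ± 0.18, the F-box gene Fbxo31, whose protein targets cyclin D1, by 0.54 ± 0.21, and the cullin gene Cul3 by -0.28 ± 0.15 (SE). Of 22 other cyclins and CDKs, 18 had lower means, as 11145 of all 22180 genes did. At an unadjusted p under 0.05, 6 were lower, where 6.93% of all genes were. The 6 included the splicing and transcription cyclins Ccnl1 (-0.65 ± 0.14) and Ccnt1 (-0.81 ± 0.21). With arrays set to a common median, or without WT replicate 1, 13 of the 22 means were lower. Proliferation markers had 7 of 11 means higher, near the 54.5% of genes at or above the median gene, with 6 of 11 without WT replicate 2 and 10 of 11 with arrays set to a common median. Examples were Aurka at 0.63 ± 0.17, Aurkb at 0.46 ± 0.19, Birc5 at 0.45 ± 0.17 and Mki67 at -0.36 ± 0.14 (SE).

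Markers of other cells also differed between the groups. Of 7 measured erythroblast markers, 5 rose past the test over all genes in limma, and none passed when either KO array was left out, although all 7 then had an unadjusted p under 0.05, while 5 passed without either WT array. Of all genes, 0.397% rose past the test with all arrays kept. The sum of the linear signals of the 7 markers was 3675 and 3495 in KO and 347 and 438 in WT. Most of each sum was the signal of Car1, at 11.6 and 11.5 in KO and at 7.86 and 8.38 in WT. Within that list the late marker Slc4a1 was below the median gene on the KO arrays and on WT replicate 1, at 2.999 and 3.61 in KO and at 4.15 and 4.38 in WT. Of 16 neutrophil markers 14 had higher means in KO, as 11029 of all 22180 genes did. At an unadjusted p under 0.05, 10 were higher (10.5% of all genes). The sums of the neutrophil list were 13901 and 13994 in KO and 11951 and 9644 in WT. Most of each sum was the signal of the granule protein genes Mpo, Elane, Prtn3 and Ctsg. Ly6g and Cd177 had the 2 lower means, with differences of -0.064 and -0.0054. Of 7 measured markers of LSK and stem cells, 5 had lower means, as 11145 of all 22180 genes did. The sums of the 7 were 4121 and 3993 in KO and 5517 and 4912 in WT. Of 15 macrophage and dendritic cell markers 2 rose past the test over all genes, as 0.397% of all genes did. They were the class II genes H2-Aa (limma adjusted p = 0.0227) and H2-Eb1 (0.0342). Over the list 9 means were higher and 6 lower, with a median of 0.13. The list's sums were 2827 and 2847 in KO and 2030 and 1906 in WT. Of 10 mast cell and basophil markers Gzmb, for a granule protease, rose past the same test (limma adjusted p = 0.0492), as 0.397% of all genes did. The sums of this list were 1041 and 980.3 in KO and 537 and 888 in WT. The 8 lineage markers summed to 4638 and 5042 in KO and to 2826 and 3294 in WT, and none passed. Most of each sum was the signal of Ly6c2, the only 1 of the 8 with a higher mean in KO. The other 7 means were lower, as 11145 of all 22180 genes were, and the list's median was -0.20. None of 10 B lineage, 10 T and NK, 10 megakaryocyte and 12 stroma markers passed. At an unadjusted p under 0.05, 3 B lineage, 1 T and NK and 3 stroma markers were lower in KO, where 6.93% of all genes were. Of the megakaryocyte markers 2 were higher (10.5% of all genes) and 1 was lower at that p. The part of these markers in the differences of Ccne1 and Cdk6 was not tested.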

How the data were processed

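Expression in LSK cells was measured on 4 arrays, 2 KO and 2 WT. The authors deposited log2 values for 41345 probe sets; RMA and Affymetrix Expression Console 1.2.1 are named per the submitters' processing notes, without settings. The log2 scale was read from the values, and no source here gives the genome build behind the probe sets. No detection calls or scan dates were used, and precision is limited by 2 arrays per group. The platform annotation gave 1 symbol to 23521 probe sets, several to 1814 and left 16010 unlisted. The probe set of highest mean stood for each gene, giving 22180 genes, with no filter on dim genes. The KO against WT fit used limma 3.58.1 (R 4.3.3) with empirical Bayes moderation and an intensity trend, two-sided p-values adjusted by Benjamini-Hochberg over all genes and a threshold of 0.05. The fit was tested on simulated data. Coordinates and promoters are from RefSeq GRCm38.p6. The members and lists were chosen with earlier results of these data known. From each list, genes past the threshold (up to 6) and up to 4 of smallest p were eligible to be named, and the profile neighbours were the 3 nearest to each of the 2 members of widest range. Myc, Cdc37, Kit, Cd3e, Cd8a, Klrb1c, Ly6g, Ly6c2, Itgam, H2-Aa, H2-Eb1, Gzmb and Slc4a1 were named after their values were seen. So were Foxo3, Mpo, Elane, Prtn3, Ctsg and Cd177.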

Additional observations from a re-analysis of the deposited data

How the results depend on the processing

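Alternatives were the replicate number as a block, other handling of probe sets, dim genes, normalization and variance, and each array left out in turn. The within-array ratios and the medians of 2 lists were added after seeing the data. None of the 7 measured members passed under the 8 alternatives that kept all arrays. In these Ccne1 had adjusted p-values of 0.0704 to 0.136 and Cdk6 of 0.173 to 0.367 (limma). With arrays set to a common median Ccnd3 was at 0.057 and Cdk2 at 0.11, 362 genes were called over all and 2 in the 9 cell cycle lists, against 113 and 1 in the values as reported. Among genes at or above the median these counts were 289 and 3, and after quantile normalization 189 and 2. Leaving out arrays, where the spread comes from the group that keeps 2, gave 0 to 3002 genes called, 0 to 2 members and 0 to 39 list genes. The counts of 0 came without KO replicate 1 or KO replicate 2, where 1471 and 1910 genes and 6 and 5 of 115 list genes were at an unadjusted p under 0.05, and 0 members. Differences then ran from -2.54 to -1.83 for Ncoa3, 0.27 to 0.60 for Ccnd1, 0.045 to 0.15 for Ccnd2, -0.42 to 0.27 for Ccnd3, 0.65 to 0.90 for Ccne1, -0.30 to 0.25 for Cdk2, -0.042 to 0.46 for Cdk4 and -0.88 to -0.26 for Cdk6. The causes were not tested, beyond fewer arrays. With the replicate number as a block 111 genes and 0 members were called, with 2 members at an unadjusted p under 0.05, and Ncoa3 had an adjusted p of 0.0134. The labels give no shared animal or day behind the numbers, and deviations of same-numbered arrays from their group means correlated at 0.11 across genes, so no pairing was assumed.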
